A study of Mus musculus with 6 samples.

Results

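Mir31, the gene of microRNA-31, is 1 of the 1155 rows of a small RNA sequencing table from mouse embryonic fibroblasts, primary connective tissue cells grown from embryos. It was taken by its row name in the count and FPKM tables, and it was chosen by its measured counts and fold change between genotypes in these same libraries. Its levels are therefore described here and not tested. The study had 3 libraries of WT fibroblasts and 3 of Fbxw7 KO fibroblasts, which lack FBXW7, the F-box subunit by which an SCF ubiquitin ligase binds substrates such as Notch, Jun, cyclin E and Myc. Both were grown in DMEM with serum and non-essential amino acids. The labels do not say how the knock-out was made, nor give a strain, a passage or the embryos behind each library. P-values thus measure the spread between these 6 samples alone, and it may be technical. Counts per library ran from 2932439 to 5019700, and the Fbxw7 transcript itself was not analysed here.

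A microRNA is cut from a hairpin in a longer primary transcript, and 1 arm, loaded into an Argonaute protein, represses messenger RNAs that pair with its seed, bases 2 to 8. miR-31 is best known as a restrainer of breast cancer spread through RhoA and integrin alpha 5, as a miRNA that rises in wounded and psoriatic skin, and as a regulator of Myf5 in muscle stem cells. It also represses FIH, the asparaginyl hydroxylase that limits hypoxia-inducible factors.

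The Mir31 hairpin of 106 bases lies on chromosome 4 of mm10, 88910557 to 88910662, minus strand, at the same place in the count table, RefSeq and GENCODE M21. The 3 sequences below, from RefSeq (GRCm38.p6), are shown because a read from either arm falls into the same count. Capitals mark the arms in the hairpin and the seeds in the mature miRNAs.
Mir31 hairpin: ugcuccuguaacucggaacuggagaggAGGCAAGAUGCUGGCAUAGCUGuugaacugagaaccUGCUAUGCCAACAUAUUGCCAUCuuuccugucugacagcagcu
mmu-miR-31-5p: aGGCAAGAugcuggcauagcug
mmu-miR-31-3p: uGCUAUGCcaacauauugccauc
The 5p arm spans hairpin bases 28 to 49 and the 3p arm bases 64 to 86. In the structure predicted by RNAfold, 17 of the 22 bases of the 5p arm pair with the 3p arm, and 6 of its 7 seed bases are paired. Of 1736 other mouse mature miRNAs in the RefSeq table, 0 share either seed. The arms have different seeds, and the Mir31 count does not tell which of them was read. The longest run of bases that the hairpin shares with another listed hairpin is 12 (Mir7686), and 0 other count rows overlap its row. Among 141767 GENCODE transcripts, the mature 5p and 3p sequences each occur in those of 2 genes, Mir31 and the lincRNA AL805899.1 around it. Loss of reads to a copy elsewhere in the genome was not tested, since no genome sequence was used here.

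The hairpin lies in exon 3 of AL805899.1 (exon 88909855 to 88910710, same strand), which RefSeq lists as the lncRNA Gm49890, so it is exonic in a non-coding host. On the side of lower coordinates stand 17 protein-coding genes named as type I interferons, the nearest of them Ifne at 30.4 kb. On the other side stand Mtap, of methionine salvage, at 226.5 kb, Cdkn2a, which encodes the cell cycle inhibitors p16 and p19Arf, at 363.8 kb, and Cdkn2b at 395.6 kb. These coding transcripts were not analysed here. The RefSeq promoter of the host, 250 bases before to 50 after the annotated start, is shown because RefSeq starts the transcript around Mir31 there, upstream of the GENCODE start at 88938521 (chr4:88941993-88942292, minus strand, mm10).
Gm49890 promoter: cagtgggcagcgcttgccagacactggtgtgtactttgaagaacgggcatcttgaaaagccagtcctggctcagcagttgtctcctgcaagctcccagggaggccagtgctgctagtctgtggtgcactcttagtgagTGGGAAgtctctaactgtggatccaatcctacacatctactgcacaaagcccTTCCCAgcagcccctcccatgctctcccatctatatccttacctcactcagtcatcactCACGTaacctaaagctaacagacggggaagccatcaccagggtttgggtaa
Capitals mark matches, on either strand, to motifs of factors tied to FBXW7 or to low oxygen. TGGGAA, bound by the Notch effector RBPJ, matched at 2 places, and 25.6% of 32817 promoters of this length hold it. ACGTG, the core of the hypoxia response element, matched once, against 19.6% of promoters. The Myc motif CACGTG, which contains ACGTG, and the AP-1 motif TGANTCA each had 0 matches, and 7.15% and 7.81% of promoters hold them. A match describes letters and not a bound site.

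Mir31 was detected in every library, and its level in Fbxw7 KO was about 3 times that in WT whichever scale was used. The WT libraries 1 to 3 held 2201, 1472 and 2195 reads of Mir31, and the Fbxw7 KO libraries 1 to 3 held 4430, 4246 and 6991. All 3 KO libraries thus held more reads than any WT library, although 2 of them were sequenced less deeply than any WT library. In reads per 1e+06 reads, scaled by edgeR's TMM factors (CPM), the WT libraries stood at 442, 349.9 and 571 and the KO libraries at 1397, 1442 and 1791. The lowest KO library was above the highest WT library. Replicate 3 was the highest library within each genotype, and WT replicate 2 was the lowest of all 6.

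Mean levels were 454 ± 111 CPM for WT and 1544 ± 215 CPM for Fbxw7 KO (SD, n = 3 each), a ratio of 3.40 and a fitted log2 fold change of 1.77 (SE 0.194). Over the 9 pairs of 1 KO and 1 WT library the ratio ran from 2.45 to 5.12. These are the values for which Mir31 was chosen, and nothing is read from the absence of overlap. Among the 283 miRNAs with enough counts to be tested, 43.8% had no overlap between genotypes, 23.7% with KO higher and 20.1% with KO lower. In such bulk libraries a change in the number of cells that make a miRNA and a change in its amount per cell cannot be told apart.

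**Figure D1:**
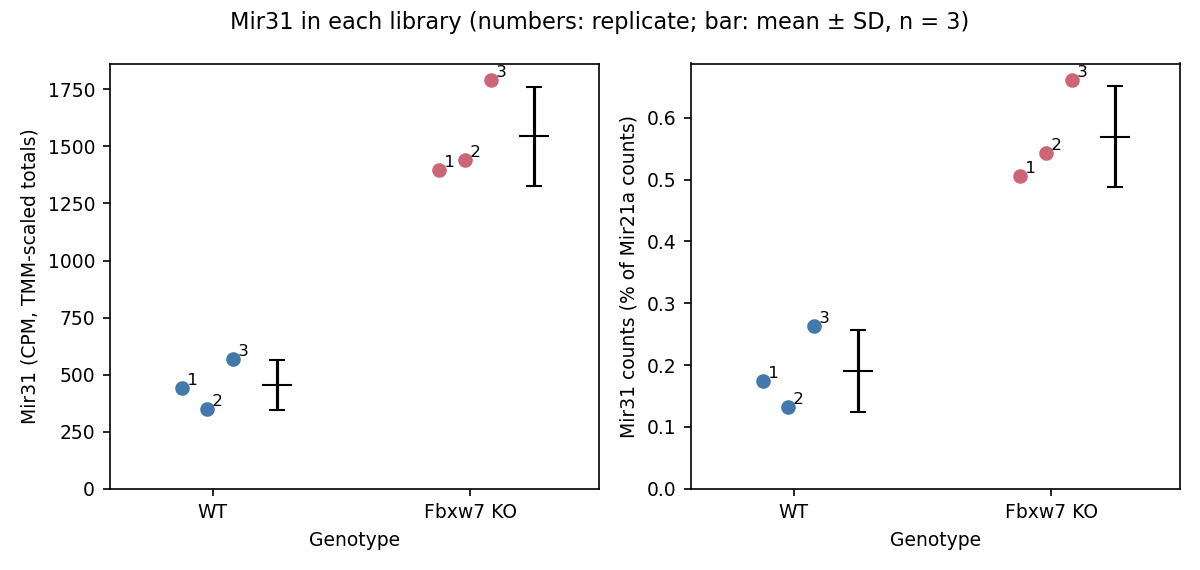
Left, Mir31 level (CPM) and right, Mir31 reads as a percentage of Mir21a reads, for each library (points, with replicate numbers) of WT and Fbxw7 KO, with mean ± SD of 3 libraries. The KO libraries sit between 1397 and 1791 CPM and the WT libraries between 349.9 and 571.

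The share of all miRNA reads that came from Mir31 was small but well counted. In WT it was 0.0438% (95% Wilson interval 0.0421 to 0.0457), 0.0322% (0.0306 to 0.0339) and 0.0592% (0.0568 to 0.0617). In Fbxw7 KO it was 0.141% (0.137 to 0.145), 0.145% (0.141 to 0.149) and 0.186% (0.182 to 0.191). These intervals cover counting error only, since reads without molecular identifiers are not independent molecules. Counting error put a CV of 1.2% to 2.61% on the single libraries, against a CV between libraries of 24.4% in WT and 13.9% in KO.

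The authors' FPKM, which divide by the length of the hairpin, gave the same order. They were 4255, 3164 and 5366 in WT and 13429.8, 13470.8 and 17166 in Fbxw7 KO, with means of 4262 ± 1101 and 14689 ± 2145 (SD, n = 3) and a ratio of 3.45. A scale that needs no library factor was the number of Mir31 reads per read of Mir21a, the most abundant miRNA of these cells. Mir31 reads were 0.174%, 0.133% and 0.262% of Mir21a reads in WT and 0.506%, 0.542% and 0.661% in KO. The ratio of the means was 3.002, and the genotypes again did not overlap. Mir21a itself was higher in each KO library than in any WT library, by a log2 fold change of 0.15 (SE 0.107) that did not pass (edgeR adjusted p = 0.338).

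Mir31 stood higher in the order of levels in KO than in WT. By read count it ranked 86, 93 and 75 among all rows in the WT libraries and 42, 42 and 40 in the Fbxw7 KO libraries. By mean CPM it stood at place 82 in WT, between Mir30b (501 ± 96.0 CPM) and Mir361 (443 ± 67.1). Mir328 (503 ± 55.9) and Mir218-2 (442 ± 108.7) stood next beyond these. All 4 had libraries within the WT range of Mir31, so their order is not resolved by 3 libraries. In KO it stood at place 41, between Mir34b (1783 ± 385 CPM) and Mir148b (1527 ± 102), with Mir409 (1837 ± 132) and Mir322 (1413 ± 279) next beyond, and these 4 ranges overlapped that of Mir31 too. These are numbers of reads and not of molecules, because ligation and amplification differ between miRNAs.

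The neighbours in level were each tested between genotypes. Mir328, known to repress the drug transporter Abcg2, was lower in KO at 371 ± 23.6 CPM (edgeR adjusted p = 0.0418, log2 fold change −0.44, SE 0.135), a call that 11 of 19 alternatives ended. Mir30b (0.40, adjusted p = 0.137), Mir361 (0.14, adjusted p = 0.504) and Mir218-2 (0.07, adjusted p = 0.844) did not pass. Of the neighbours in KO, Mir409 of the imprinted Dlk1-Dio3 cluster fell from 3528 ± 400.1 CPM (−0.94, SE 0.136, edgeR adjusted p = 0.00164). Mir148b, a repressor of DNA methyltransferase 1, rose from 1157 ± 99.6 CPM (0.40, SE 0.126, adjusted p = 0.0465), a call that 13 of 19 alternatives ended. Mir34b had 927 ± 254 CPM in WT and is described further on. Mir322, a cell cycle miRNA, did not pass (0.27, adjusted p = 0.568).

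Mir31 had both a high level and a high fold change. It took place 12 by log2 fold change among the 283 tested miRNAs, whose median was 0.05, and 8.48% of them had a log2 fold change of 1 or more. No miRNA called higher with at least a doubling had a mean level in KO above that of Mir31. The mean gain of 1089 CPM took place 10 among all tested miRNAs. The gains above it included those of Mir21a, Mir29a, Mir10b, Mir148a, Mirlet7g and Mir34c, which had higher WT levels of 244907, 13645, 14515, 32765, 21071 and 2919.6 CPM. As a description of values that also served to choose Mir31, these places carry no test.

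**Figure D2:**
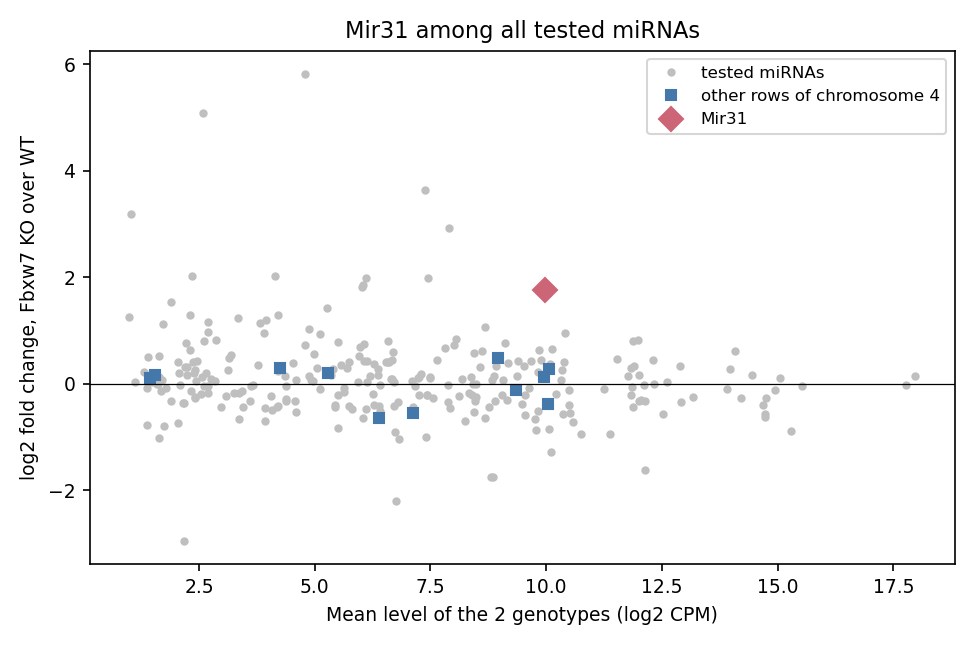
Log2 fold change of Fbxw7 KO over WT (vertical) against mean level in log2 CPM (horizontal) for each of the 283 tested miRNAs (grey), with Mir31 (diamond) and the 11 other tested rows of chromosome 4 (squares) marked. Mir31 stands at 1.77, and of those 11 only Mir32 at −0.65 and Mir34a at 0.49 passed the test.

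The spread of Mir31 between replicates is a separate measure, and it was near the middle of the other miRNAs in KO and wide in WT. The SD of its log2 CPM was 0.353 in WT and 0.195 in Fbxw7 KO. Among the 136 tested miRNAs with a mean of at least 100 CPM, 85.3% had a smaller SD in WT and 54.4% a smaller SD in KO. The SD pooled over both genotypes was 0.285, against a median of 0.203 for those miRNAs. The biological CV that edgeR assigned to Mir31 was 18.3%, against 17.2% for the trend at its level. Because edgeR draws the CV of each miRNA towards that trend, their closeness is in part built in.

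One KO library stood apart from the others over all miRNAs. On the second principal component, with 17.4% of the variance, Fbxw7 KO replicate 3 had a score of −6.46 against 2.90 and 3.55 for the other KO libraries. It was also the library with the most Mir31. Without it the log2 fold change of Mir31 was 1.65, and without WT replicate 2, the lowest library, it was 1.62. Without WT replicate 3 it was 1.95. Over all 19 alternatives in scaling, filter, tool, unit, block and omitted library it stayed between 1.62 and 1.95, within 1 pooled SD of the reported value.

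**Figure D3:**
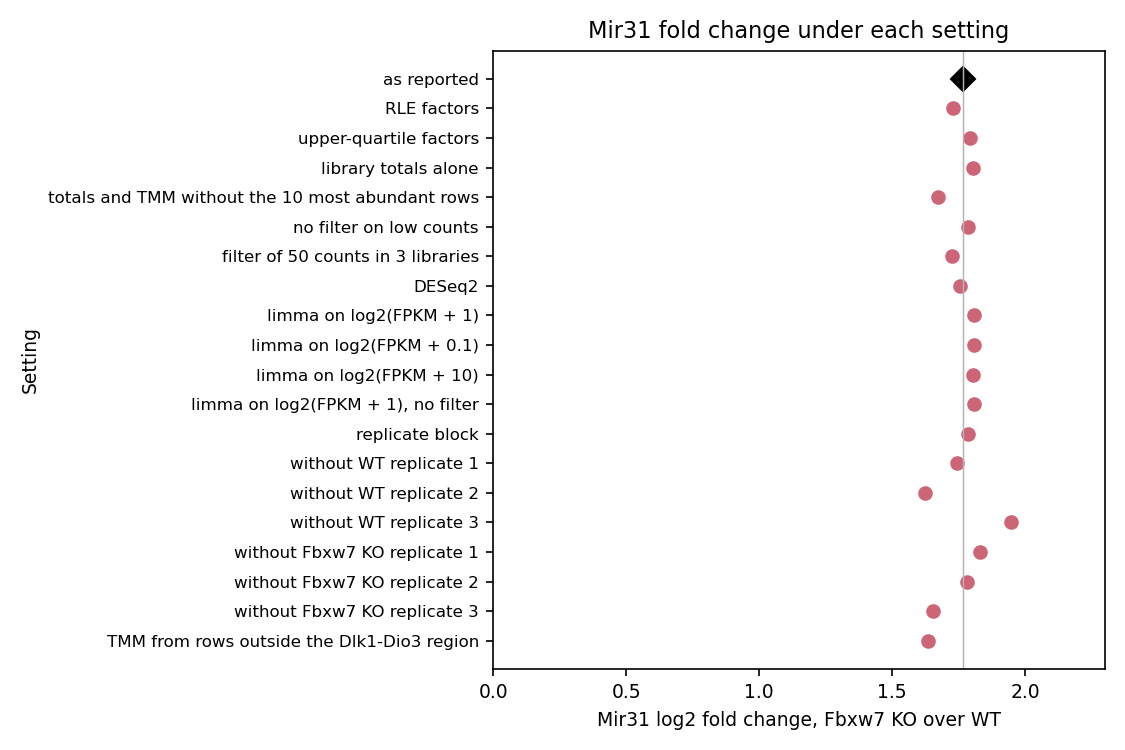
Log2 fold change of Mir31 (horizontal) under each way of processing the data (vertical), with the reported value as a diamond. The lowest value is 1.62, without WT replicate 2, and the highest is 1.95, without WT replicate 3.

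The rows whose profile over the 6 libraries was most like that of Mir31 were found by centring log2 CPM on its mean and taking the root-mean-square difference, over 165 tested miRNAs with a mean of at least 50 CPM. Mir582 was nearest, with a difference of 0.214, followed by Mir93 (0.366), Mir34b (0.429), Mir34c (0.482), Mir15b (0.535), Mir592 (0.546), Mir708 (0.568) and Mir1983 (0.581). The median difference over the 165 was 0.951, and a row at the same level in all libraries would have a difference of 0.922. All 8 had higher mean levels in KO, which follows from how they were chosen, so their genotype differences are given without a test here.

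Mir582, an intronic miRNA of the phosphodiesterase gene Pde4d, had 22.7, 29.5 and 33.5 CPM in WT and 92.4, 90.4 and 120.1 in KO. Like Mir31, it was highest in replicate 3 of both genotypes, at a much lower level. Mir93, a member of the Mir106b cluster in Mcm7, had 280.1, 216 and 304 CPM in WT and 509, 551 and 615 in KO. It had its lowest value in WT replicate 2 and its highest in KO replicate 3, as Mir31 had.

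Mir34b and Mir34c, made from a p53-activated transcript, had a smaller step between genotypes. Mir34b had 791, 770.4 and 1220.2 CPM in WT and 1573, 1549.6 and 2228 in KO, and Mir34c had 2648, 2465 and 3645 in WT and 4727, 4598 and 6173 in KO. Both were lowest in WT replicate 2 and highest in KO replicate 3. Mir15b, which represses cyclins, had 202, 186 and 189 CPM in WT and 277, 318 and 432 in KO.

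Mir592 and Mir708 matched the size of the step and not the order within a genotype. Mir592 had 36.7, 28.8 and 20.3 CPM in WT and 117, 124 and 70.4 in KO. Mir708, in an intron of Tenm4, had 73.6, 87.0 and 51.2 CPM in WT and 326, 321 and 191 in KO. In both, replicate 3 was the lowest library of each genotype, where Mir31 was at its highest. Mir1983 had 262, 246 and 422 CPM in WT and 415, 427 and 586 in KO, and its genotypes overlapped.

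**Figure D4:**
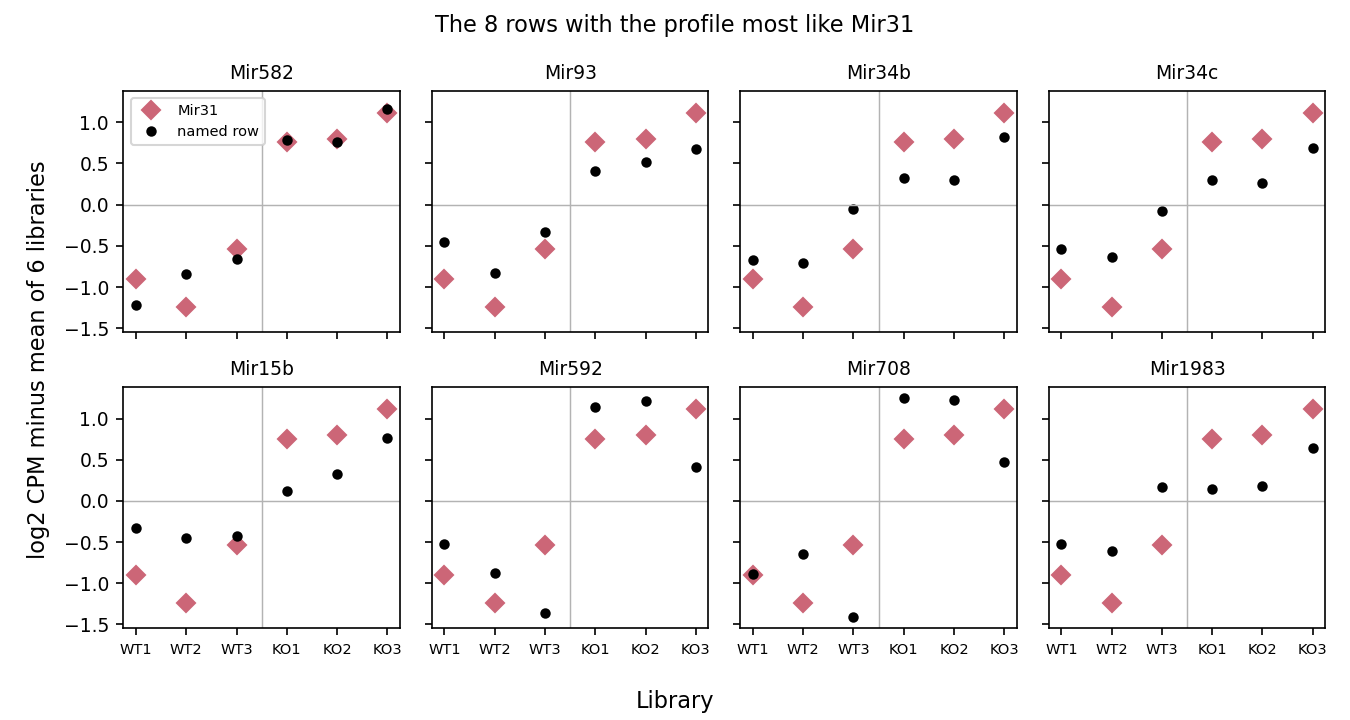
Log2 CPM minus the mean of the 6 libraries (vertical) in each library (horizontal) for the 8 rows most like Mir31 (black points), with Mir31 repeated in each panel (diamonds). Mir582 lies closest to Mir31, at a difference of 0.214, while Mir592 and Mir708 are lowest in replicate 3 of each genotype.

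The mature 5p sequences of the 3 nearest are shown because none of them carries a miR-31 seed (RefSeq, GRCm38.p6, seeds in capitals).
mmu-miR-582-5p: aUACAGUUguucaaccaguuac
mmu-miR-93-5p: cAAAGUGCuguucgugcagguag
mmu-miR-34b-5p: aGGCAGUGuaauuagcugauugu
Of the listed arms of the 8, which include no 5p arm of Mir34c, 0 have the seed of either miR-31 arm. The 3p arms of Mir34b and Mir34c share a seed with each other. The seed of miR-34b-5p begins with the same 4 bases as that of miR-31-5p, as do 16 of the 1736 other listed miRNAs. The choice of the 8 rested in part on the measure and on 1 library. With library totals alone in place of TMM, 8 of the 8 were chosen again. Without Fbxw7 KO replicate 3, 5 of the 8 were chosen again, among them Mir582, Mir93, Mir34b and Mir34c. Ranking by correlation in place of distance kept those 4 alone.

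Too few rows near Mir31 on chromosome 4 could be measured to show whether values rose around it. Within 10 Mb there were 3 other rows, of which 1 could be tested. Mir491, in the tumour suppressor gene Focad at 788 kb, had 8, 6 and 4 reads in WT and 5, 3 and 3 in KO, too few to test. Mir6402 was at 0 in every library. Mir872 had 951.9 ± 30.4 CPM in WT and 1044 ± 119 in KO (edgeR adjusted p = 0.480, log2 fold change 0.13, SE 0.126). Reads of Mir31 per read of Mir872 were 0.450, 0.367 and 0.619 in WT and 1.35, 1.55 and 1.53 in KO, and the ratio of the means was 3.09. Of the 52 other rows on the chromosome, 11 could be tested, and their median log2 fold change was 0.13 against 0.05 over all tested miRNAs. Among them 1 was called higher, Mir34a, and 1 lower, Mir32, against 15.2% and 10.2% of all tested miRNAs. Mir32 (−0.65, edgeR adjusted p = 0.0207) lies 32015 kb away and was named after its value was seen.

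miRNAs that share a setting with miR-31 were taken as 6 lists. None contains Mir31, the lists share members, and they were drawn up with earlier results of these data known, so their counts are no independent evidence of a direction. Of 33 distinct tested members 8 were called, all of them higher in Fbxw7 KO (24.2%), against 25.4% of all tested miRNAs called, 15.2% higher and 10.2% lower. Of these 33, Mir217 reached the minimum of the count filter in the KO libraries alone and so had to be high in KO to be tested; 7 of the other 32 were higher and 0 lower. Without Fbxw7 KO replicate 3 the number of called members was 12, without WT replicate 1 it was 5, without WT replicate 2 it was 3 and without Fbxw7 KO replicate 2 it was 4.

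In the bone list, miRNAs known to act in bone formation, 5 of 9 tested members rose (55.6%, against 15.2% of all tested miRNAs). In the same list 0 fell and 4 did not pass, and the median log2 fold change was 0.46. Apart from Mir217, which could enter the test only by being high in KO, 4 of 8 rose and the median was 0.37. Mir217, a repressor of the deacetylase Sirt1, had 0.803, 1.19 and 0.780 CPM in WT and 69.7, 75.7 and 16.9 in KO, where replicate 3 was the lowest. These were 4, 5 and 3 reads against 221, 223 and 66, and the fitted log2 fold change was 5.82 (SE 0.669, edgeR adjusted p = 0.000666), to be read with that condition on its entry. Mir34c (0.82, SE 0.188, adjusted p = 0.0154) and Mir34b (0.94, SE 0.219, adjusted p = 0.0161) rose as well. These were also named above for their likeness to Mir31, so their calls are not separate from that choice. Mir34b and Mir34c come from the same transcript, so in this list and in the counts over all lists they are not separate risers. Omitting WT replicate 1 or 2 ended both calls (highest adjusted p 0.0719 and 0.0770). Mir135a-2 rose from 3.94 ± 0.999 to 8.91 ± 0.710 CPM (1.17, adjusted p = 0.0154), and DESeq2 or omission of replicate 2 of either genotype ended its call. Mir23a was the other riser, at 0.46 (adjusted p = 0.0251). Mir27a, the neighbour of Mir23a on chromosome 8, had 32703 CPM in WT and did not pass (−0.11, adjusted p = 0.600). Mir30c-1, Mir218-1 and Mir218-2 did not pass either. Omitting WT replicate 1 left 2 risers in this list, omitting WT replicate 2 left 1, and omitting Fbxw7 KO replicate 2 left 3. Omitting WT replicate 3 gave 1 member called lower.

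In the senescence list 5 of 8 tested members rose (62.5%, against 15.2% of all tested miRNAs) and 0 fell, with a median of 0.55. Of these risers 3, Mir217, Mir34b and Mir34c, are also in the bone list. Mir34b and Mir34c share a transcript, so the share of 62.5% counts rows and not separate transcripts. Apart from Mir217, 4 of 7 rose and the median was 0.49. Mir29a, a repressor of collagen genes, had 13645 ± 852 CPM in WT and 20925 ± 1300.1 in KO. It rose by 0.62 on the log2 scale (SE 0.122) with an edgeR adjusted p of 0.00788, or 0.0512 when Fbxw7 KO replicate 2 was omitted. Mir29b-1, its neighbour on chromosome 6, had only 3.59 CPM in WT and did not pass (0.42, adjusted p = 0.335). Mir34a, which p53 activates, rose from 415 ± 65.6 to 583 ± 21.6 CPM (0.49, SE 0.143, adjusted p = 0.0365), a call that ended in 8 of 19 alternatives. Omission of WT replicate 1 gave 3 risers, of WT replicate 2 gave 2, and of Fbxw7 KO replicate 2 gave 3. Of 12 rows in the list 3 were at 0 counts, namely Mir22, Mir24-1 and Mir24-2, so the list was measured only in part.

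In the skin and wound list, 1 of 7 tested members rose (14.3%, against 15.2% of all tested miRNAs) and 0 fell, with a median of 0.15. The riser was Mir210, the best-known miRNA target of hypoxia-inducible factors, with 66.0, 61.8 and 38.2 CPM in WT and 347, 319.6 and 603 in KO. Its log2 fold change was 2.93 (SE 0.304), with an edgeR adjusted p of 0.000666, and KO replicate 3 was again the highest library. The skin list had 2 risers in 7 alternatives and 3 without Fbxw7 KO replicate 3, and 1 or 2 members called lower in 8 alternatives. Mir210 was also the 1 riser among 9 tested hypoxia-induced miRNAs (11.1%, again below 15.2%), which had 0 falls and a median of 0.19. Besides Mir210, the highest value in that list was 0.53 for Mir26a-2 (adjusted p = 0.0850). In the list of miRNAs that restrain metastasis only 3 of 9 could be tested, with a median of 0.49. Mir34a was the 1 that rose (33.3%, against 15.2% of all tested miRNAs). No member was called in 8 alternatives, among them the omission of WT replicate 2 or 3 and that of Fbxw7 KO replicate 1 or 2, and 2 were called in 2 others. Mir206 (0.66, adjusted p = 0.110) and Mir335 (0.41, adjusted p = 0.480) did not pass.

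The last list was drawn up as miRNAs induced by NF-kB, AP-1 or STAT3 signalling. None of its 6 tested members passed the edgeR test in either direction, against 25.4% of all tested miRNAs. Among these 6, Mir132 and Mir212 are better known as a CREB-driven cluster. The median of the 6 was −0.22. The 2 most abundant were Mir21a and Mir146, the feedback regulator of NF-kB signalling, with 5174 ± 1122 CPM in WT and 5171 ± 686 in KO (log2 fold change −0.000715, edgeR adjusted p = 0.997). At an unadjusted p under 0.05 there were 3, Mir132 (−0.53, adjusted p = 0.0700) and Mir212 (−0.51, adjusted p = 0.0721) on the lower side and Mir147 (0.77, adjusted p = 0.0968) on the higher. Between 1 and 2 members were called lower in 8 alternatives: 1 with DESeq2, with no filter on low counts or without Fbxw7 KO replicate 3, and 2 without WT replicate 3 among the others. Mir155, Mir222 and Mir9-1 of this list were at 0 counts in all libraries. Mir222 overlaps the row of Mir221, and Mir9-1 has the numbered copies Mir9-2 and Mir9-3. Reads over overlapping rows or with several alignments are left out, so the 0 of Mir222 and of Mir9-1 is no measure of absence.

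**Figure D5:**
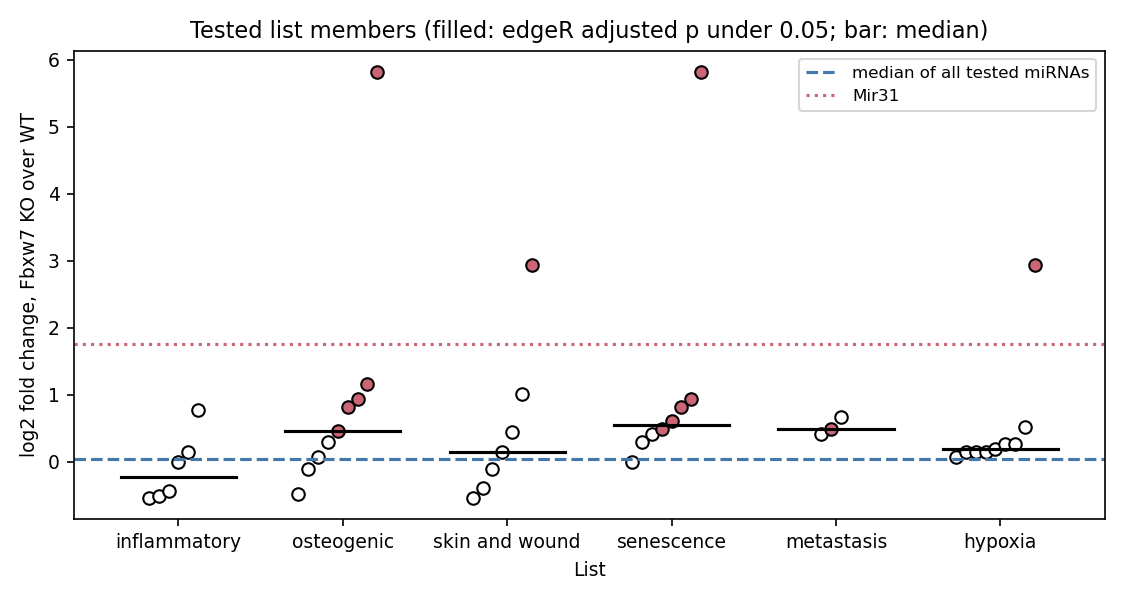
Log2 fold change of Fbxw7 KO over WT (vertical) for the tested members of 6 lists (horizontal), filled where the edgeR adjusted p was under 0.05, with the median of each list (bar), of all tested miRNAs (dashed line, 0.05) and the value of Mir31 (dotted line, 1.77). Mir217 and Mir210 are the list members above Mir31.

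Because miR-31 is also abundant in skin epithelium and in muscle stem cells, markers of other cell types were set beside it. Epithelial miRNAs (7 rows, 0 at 0 counts) summed to between 21.3 and 25.2 CPM in WT and between 16.1 and 61.2 in KO. Their most abundant member, Mir203, had 18.7, 20.0 and 19.2 CPM in WT and 59.3, 45.5 and 13.3 in KO, above every WT library in KO replicates 1 and 2 and below them in replicate 3. Its log2 fold change of 1.02 did not pass (edgeR adjusted p = 0.133), but without Fbxw7 KO replicate 3 it was 1.45 and passed (adjusted p = 0.000556). The part of epithelial RNA in the Mir31 levels was not tested. Mir200a, Mir200b, Mir200c, Mir141, Mir429 and Mir205 each had means of at most 1.21 CPM. Muscle miRNAs (9 rows, 6 at 0 counts, Mir1a-1, Mir1a-2, Mir133a-1 and Mir133a-2 among them) summed to between 142 and 222 CPM in WT and between 217 and 393 in KO, nearly all of it Mir206. The highest Mir206 level, 389.6 CPM, was in KO replicate 3, and its part in the Mir31 level of that library was not tested. Blood, neuronal and pluripotent lists summed to at most 4.41, 41.0 and 0.512 CPM, and both endothelial rows were at 0. Mir126a and Mir126b overlap each other, as do Mir1a-2 and Mir1b, and the counting leaves out reads over 2 rows, so their 0 is no measure of absence. Reads with several alignments are left out as well. Low counts in rows of numbered copies, such as Mir133a-1 and Mir133a-2 or Mir9-1 to Mir9-3, are thus no measure of absence either. Fibroblast and mesenchymal miRNAs summed to between 553422 and 633957 CPM in WT and between 575476 and 591191 in KO. In that list 1 of 11 tested members rose, Mir199b (0.65, edgeR adjusted p = 0.0203, at most 0.0736 when replicate 2 of either genotype was omitted), and 1 fell, Mir10a (−0.89, SE 0.131, adjusted p = 0.00179). That is 9.09% in each direction, against 15.2% higher and 10.2% lower of all tested miRNAs.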

How the data were processed

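Per the file headers, the authors made the deposited read counts with featureCounts 1.6.4, grouped by miRNA gene name with strand ignored. The recorded command sets no option to count reads with several alignments or reads over 2 rows, which are then left out. Both arms of a hairpin fall into 1 count. The submitters' processing notes name mm10 as build and, as tools, deepTools, Cufflinks 2.2.1, SAMtools 1.5 and TopHat2 2.1.1. How adapters were trimmed is not given in the sources used here. The deposited FPKM equal, in 1155 of 1155 rows and within a relative difference of 1e-06, the count per length and TMM-scaled total.

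Counts were fitted with edgeR 4.0.16 in R 4.3.3 (glmQLFit, robust; glmQLFTest, 2-sided; TMM; filterByExpr with a minimum count of 10 and total of 15), genotype as the only term, 3 against 3 libraries, with Benjamini-Hochberg adjustment over 283 rows and a threshold of 0.05. Log2 CPM used 0.5 as pseudocount. Alternatives used DESeq2 1.42.0 and limma 3.58.1, and structures RNAfold 2.7.2. The script was tested on simulated data. Replicates of a genotype differed by far more than sampling noise (chi-square per degree of freedom 111.5 to 693.6).

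Mir31 and the lists were chosen with earlier results of these data known. Besides Mir31, the text names the 8 rows most like it, 2 neighbours on each side in level, chromosome 4 rows within 10 Mb, and up to 4 called members of a list (or its 2 most abundant). Mir23a, Mir32, the larger gains, rows that did not pass and rows at 0 were added after their values were seen.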

Additional observations from a re-analysis of the deposited data

How the results depend on the processing

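The log2 fold change of Mir31 stayed within 1 pooled SD of the reported value in all 19 alternatives, from 1.62 to 1.95. Its direction could hardly have changed, because each KO library was above each WT library. The pooled SD of log2 CPM, 0.285 as reported, was computed in 10 alternatives and varied. It was 0.293 without the 10 most abundant rows, 0.347 with library totals alone and 0.378 without WT replicate 1. Counts over all miRNAs depended on single libraries. Leaving out 1 library at a time gave 34 to 78 called miRNAs (72 with all 6 libraries), 19 to 46 higher (43), 15 to 32 lower (29) and 3 to 12 called list members (8). The lowest totals came without Fbxw7 KO replicate 2 (34), WT replicate 2 (35) and WT replicate 1 (42), and omission of Fbxw7 KO replicate 1 gave 19 lower. The cause was not tested. The split of 43 higher to 29 lower moved by over 10 percentage points in 2 settings, to 32 to 35 without the 10 most abundant rows and to 30 to 34 with TMM factors from outside the Dlk1-Dio3 region, an alternative chosen after seeing the data, as were those for likeness. In that last setting the median over tested miRNAs was −0.07 and Mir31 stood 1.71 above it, against 1.72 above a median of 0.05 as reported. Same-numbered libraries deviated with correlations of −0.06, 0.14 and 0.16, and 3 of 6 libraries correlated best with their own number. With 3 libraries per genotype this cannot show whether the numbers pair the samples. A fit with the replicate number as a block gave 76 called miRNAs, 12 called list members and 1.78 for Mir31.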
